A study of Mus musculus with 8 samples.

Results

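Macrophages take up dead cells, ageing red cells and antibody-coated particles, and in bone marrow they also surround maturing erythroblasts. Their textbook markers were read here in a sorted stem and progenitor population. The 10 genes were C1qa, C1qb, C1qc, Cd68, Adgre1, Mrc1, Cd5l, Axl, Mertk and Fcgr1, taken by name from a list of macrophage genes that leaves out class II antigen genes. They are 10 of 18193 genes measured by singly named probe sets, and where a gene had several of these the one with the brightest mean over the 8 arrays was used. Together they have 14 of the 45037 probe sets that are not controls.

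The cells were LSK cells, the lineage-low, Sca1-positive and cKit-high fraction that holds haematopoietic stem cells and early progenitors, sorted by flow cytometry from C57BL/6 mice. Of 8 arrays, 4 held RNA of wild type mice and 4 held RNA of heterozygous Jak2V617F mice, and the labels name 1 mouse for each array. Jak2V617F is a kinase variant with constant activity that drives myeloproliferative neoplasms. Neither genotype received a treatment that the labels record. A Cre driver, age and sex of the mice are not given in the labels. Values are log2 intensities as the authors deposited them, and every change is mutant minus wild type on that scale.

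Array medians ran from 7.06 to 7.15 on the log2 scale, and any 2 arrays correlated at 0.991 to 0.995 over the probe sets. Xist and Y-linked genes gave female expression in 3 arrays (wild type 1 and 2, mutant 3) and male expression in 5. Kit, the receptor that defines the sort, stood at 12.65 in wild type and 12.67 in mutant arrays. Among 9 markers of LSK cells, however, 6 had a lower mean in mutant arrays. Y-linked genes read up to 5.37 in the arrays with female expression, and this is taken below as the level of an absent transcript. That level differs by probe set, since in male arrays Xist still gave 5.54 to 6.54. The wild type means of 6 of the 10 genes lay at or below 6.54, so their changes may be understated. With 4 arrays a genotype, precision is limited by their number.

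Of the 10 macrophage genes, 9 had a higher mean in mutant LSK cells and 1, Axl, a lower one. None passed the adjusted threshold of 0.05 in limma fitted over all genes, and 4 (Cd68, Adgre1, C1qc and Fcgr1) had an unadjusted p under 0.05. Over all genes 0.165% passed the adjusted threshold, 19 higher and 11 lower (37 and 10 with each array centred on its median, 44 and 66 over all probe sets), and 17.2% had an unadjusted p under 0.05, 11.9% in the higher direction. The median change of the 10 genes was 0.40, beside 0.054 over all genes, of which 62.6% had a change above 0. The mutant arrays all lay above the wild type arrays for 2 of the 10, Cd68 and Adgre1, and arrays of the genotypes did not overlap for 10.1% of all genes, 6.82% in the higher direction.

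With arrays left out in turn, that median depended most on 2 arrays, wild type array 4 and mutant array 3. Wild type array 4 was the lowest of all 8 for 7 of the 10 genes, and mutant array 3 was the highest for 7. Without wild type array 4 the median change was 0.23, with 7 of 10 genes above 0, and without mutant array 3 it was 0.26, with 9 of 10. Without both it was 0.079, beside 0.059 over all genes, with 7 of 10 above 0. These 2 arrays were picked as the extremes of the same 10 genes, so a smaller change without them follows from that choice. Mutant array 3 is also the only mutant array with female expression, so without it the genotypes differ more in sex. The median was 0.49 with sex as a covariate and 0.435 in male arrays alone. Among female arrays (2 wild type, 1 mutant) it was 0.62. In bulk RNA, more macrophages in the sort and more of these transcripts per cell cannot be told apart.

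**Figure D1:**
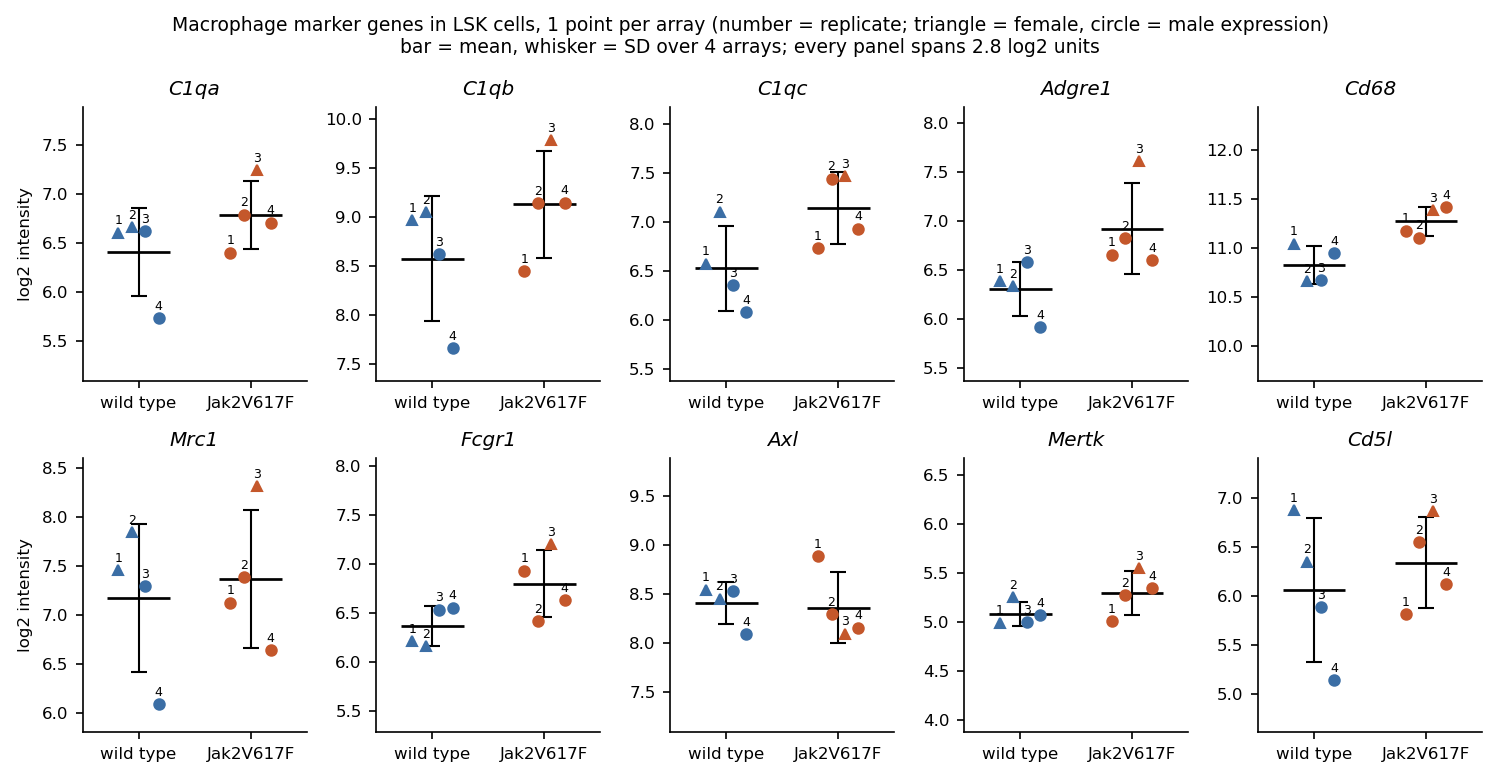
Log2 intensity (y axis) of the 10 macrophage genes in wild type (blue) and Jak2V617F (orange) LSK arrays, 1 point per array with its replicate number, triangles for female and circles for male expression, bars for the mean and whiskers for the SD (n = 4). The genotypes separate for Cd68 and Adgre1, wild type array 4 is lowest of all for 7 genes and mutant array 3 is highest for 7.

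C1qa, C1qb and C1qc encode the 3 chains of C1q, which binds antibody on targets and opens the classical complement pathway; macrophages are a main source. C1qa read 6.61, 6.67, 6.62 and 5.74 in wild type arrays 1 to 4 and 6.41, 6.79, 7.24 and 6.71 in mutant arrays 1 to 4. C1qb read 8.97, 9.05, 8.62 and 7.66 in wild type and 8.45, 9.14, 9.78 and 9.14 in mutant arrays. C1qc read 6.58, 7.11, 6.36 and 6.08 in wild type and 6.73, 7.44, 7.47 and 6.93 in mutant arrays. In each of the 3 genes wild type array 4 was lowest, mutant array 3 highest and mutant array 1 the lowest of the mutants, and the genotypes overlapped.

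The changes of the C1q chains were of one direction but mostly within the spread between mice. The mean of C1qa was 6.41 ± 0.45 in wild type and 6.79 ± 0.35 in mutant arrays (SD, n = 4 each), a change of 0.38 ± 0.24 (SE; limma adjusted p = 0.426). C1qb went from 8.58 ± 0.64 to 9.13 ± 0.54, a change of 0.55 with a 95% interval from -0.23 to 1.34 (limma adjusted p = 0.423). C1qc went from 6.53 ± 0.43 to 7.15 ± 0.37, a change of 0.61 with a 95% interval from 0.073 to 1.15 (limma adjusted p = 0.248). Both other probe sets of C1qb moved with the chosen one, by 0.53 and 0.54, and repeated its order at the ends, with wild type array 4 lowest and mutant array 3 highest. The one that moved by 0.53, which alone has no _x_at suffix, was dimmer (6.10 in wild type and 6.63 in mutant arrays). Its wild type mean lay among the levels that Xist read in male arrays.

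The C1q values moved with the same 2 arrays as the median. Without wild type array 4 and mutant array 3 the change of C1qa was 0.0028, that of C1qb 0.032 and that of C1qc 0.35. Without wild type array 4 alone they were 0.15, 0.25 and 0.46, and without mutant array 3 alone 0.23, 0.34 and 0.50. Genotypes were also compared within each sex. Among arrays with female expression (2 wild type, 1 mutant) the differences were 0.61, 0.77 and 0.63 for C1qa, C1qb and C1qc, and among arrays with male expression (2 wild type, 3 mutant) 0.45, 0.77 and 0.82. With sex as a covariate the changes were 0.51, 0.77 and 0.75, with limma adjusted p-values of 0.224, 0.172 and 0.121.

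The C1q genes lie side by side on mouse chromosome 4 in the order C1qb, C1qc and C1qa, with 0 annotated genes between them. Since they varied together over the arrays, the stretches before the start sites of C1qb and C1qc are shown, from RefSeq, build GRCm38.p6, minus strand, at chr4:136886201-136886450 (bases 250 to 1 before the start) and chr4:136892937-136893164 (bases 250 to 23 before it, up to the farthest annotated start). Capitals mark matches on either strand to GAGGAA, the ETS core bound by the macrophage factor PU.1 (Spi1), or TGCTGA, the core bound by Maf factors.
C1qb: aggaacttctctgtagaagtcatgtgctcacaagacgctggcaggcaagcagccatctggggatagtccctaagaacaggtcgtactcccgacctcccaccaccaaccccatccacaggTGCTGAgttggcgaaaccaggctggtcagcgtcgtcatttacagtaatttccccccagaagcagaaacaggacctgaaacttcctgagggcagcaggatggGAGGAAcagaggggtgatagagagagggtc
C1qc: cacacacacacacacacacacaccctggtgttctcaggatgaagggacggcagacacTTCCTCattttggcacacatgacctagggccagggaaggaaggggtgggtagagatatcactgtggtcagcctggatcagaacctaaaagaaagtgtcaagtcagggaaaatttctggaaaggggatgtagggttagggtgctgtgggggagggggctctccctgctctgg
C1qb held GAGGAA 30 to 25 bases before its start and TGCTGA 131 to 126 bases before it, and C1qc held the reverse complement of GAGGAA 193 to 188 bases before its start. Of 8 promoters of the 10 genes in the table, 7 held GAGGAA and 2 held TGCTGA within 250 bases before the start, beside 23.3% and 16.1% of all 32851 promoters. A match is a description of letters and not of binding.

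Cd68, a glycoprotein of lysosomes in phagocytes, had the smallest p of the 10 genes. It read 11.04, 10.66, 10.67 and 10.94 in wild type arrays 1 to 4 and 11.17, 11.10, 11.38 and 11.41 in mutant arrays 1 to 4. All mutant arrays lay above all wild type arrays, by 0.062 at the nearest pair. The mean went from 10.83 ± 0.19 to 11.27 ± 0.15 (SD, n = 4 each), a change of 0.44 ± 0.12 (SE) or 1.36-fold (limma adjusted p = 0.141, and 0.112 to 0.318 over 18 alternatives). The change of Cd68 was 0.44 without wild type array 4 and mutant array 3 as well, and it differed by 0.53 among female and 0.42 among male arrays. Myeloid progenitors also express Cd68, so it marks macrophages less strictly than Adgre1.

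The bases 250 to 1 before the start of Cd68 are shown because this gene separated the genotypes (RefSeq, build GRCm38.p6, chr11:69666171-69666420, minus strand). Capitals mark GAGGAA and TGANTCA, the site of AP-1 (Fos and Jun dimers), which can overlap TGCTGA.
Cd68: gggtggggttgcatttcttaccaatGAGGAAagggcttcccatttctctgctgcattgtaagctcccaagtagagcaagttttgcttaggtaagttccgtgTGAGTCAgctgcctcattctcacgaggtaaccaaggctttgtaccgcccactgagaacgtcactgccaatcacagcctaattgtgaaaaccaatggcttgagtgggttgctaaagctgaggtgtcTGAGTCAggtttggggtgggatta
The AP-1 letters occurred at 149 to 143 and at 24 to 18 bases before the start, and GAGGAA at 225 to 220. Of the 8 promoters searched, Cd68 alone held TGANTCA, beside 6.75% of all promoters.

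Adgre1, which encodes the adhesion receptor F4/80 used to sort mouse macrophages, was the other gene whose arrays did not overlap. It read 6.39, 6.33, 6.58 and 5.92 in wild type and 6.65, 6.82, 7.61 and 6.60 in mutant arrays. The lowest mutant array lay 0.020 above the highest wild type array, and mutant array 3 lay 0.78 above the next. The mean went from 6.30 ± 0.28 to 6.92 ± 0.47 (SD, n = 4 each), a change of 0.62 ± 0.23 (SE; limma adjusted p = 0.232). It was 0.39 without mutant array 3 and 0.26 without both arrays, and 1.25 among female and 0.45 among male arrays. The wild type mean lay among the levels that Xist read in male arrays (5.54 to 6.54), and the mutant mean lay above them. How much Adgre1 transcript the wild type cells held therefore cannot be read from this probe set.

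Fcgr1, the high-affinity receptor for immunoglobulin G on macrophages and monocytes, read 6.21, 6.16, 6.53 and 6.55 in wild type and 6.93, 6.42, 7.20 and 6.63 in mutant arrays. Mutant array 2 lay below wild type arrays 3 and 4, so the genotypes overlapped. The mean went from 6.36 ± 0.21 to 6.79 ± 0.34 (SD, n = 4 each), a change of 0.43 ± 0.17 (SE; limma adjusted p = 0.257). Female arrays differed by 1.01 and male arrays by 0.12, and this difference between sexes, with 1 female mutant array, was not tested. Its other probe set was at or below the level of absent transcript in both genotypes (4.62 and 5.15).

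Mrc1, the mannose receptor of tissue macrophages, had the widest spread among the 10 genes. It read 7.46, 7.84, 7.29 and 6.09 in wild type and 7.12, 7.38, 8.31 and 6.64 in mutant arrays. The lowest value was in a wild type array and the highest in a mutant array, with the other 6 interleaved. The change was 0.19, with a 95% interval from -0.76 to 1.15 (limma adjusted p = 0.83), and its direction turned without wild type array 4 (-0.17), without mutant array 3 (-0.12) and without both (-0.48). With sex as a covariate it was 0.47 (limma adjusted p = 0.4).

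Axl and Mertk are receptor tyrosine kinases that recognise dying cells through the bridging ligands Gas6 and Pros1. Axl read 8.54, 8.45, 8.53 and 8.09 in wild type and 8.89, 8.30, 8.09 and 8.16 in mutant arrays. Its highest array was mutant array 1, the array in which all 3 C1q chains were the lowest of the mutants. The change of Axl was -0.046, with a 95% interval from -0.45 to 0.36 (limma adjusted p = 0.912), which leaves room for a change of either direction. Mertk read 4.998, 5.259, 5.005 and 5.073 in wild type and 5.013, 5.274, 5.555 and 5.350 in mutant arrays. Both its means were at or below the level of absent transcript (5.08 and 5.30), so their difference of 0.21 is one between readings at that level.

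Cd5l, a secreted protein of tissue macrophages that binds dead cells and lipids, read 6.87, 6.35, 5.88 and 5.14 in wild type and 5.81, 6.55, 6.86 and 6.12 in mutant arrays. The highest array of each genotype was one with female expression. The change was 0.28, with a 95% interval from -0.53 to 1.08 (limma adjusted p = 0.703). It was -0.031 without wild type array 4 and 0.51 with sex as a covariate (limma adjusted p = 0.289).

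**Figure D2:**
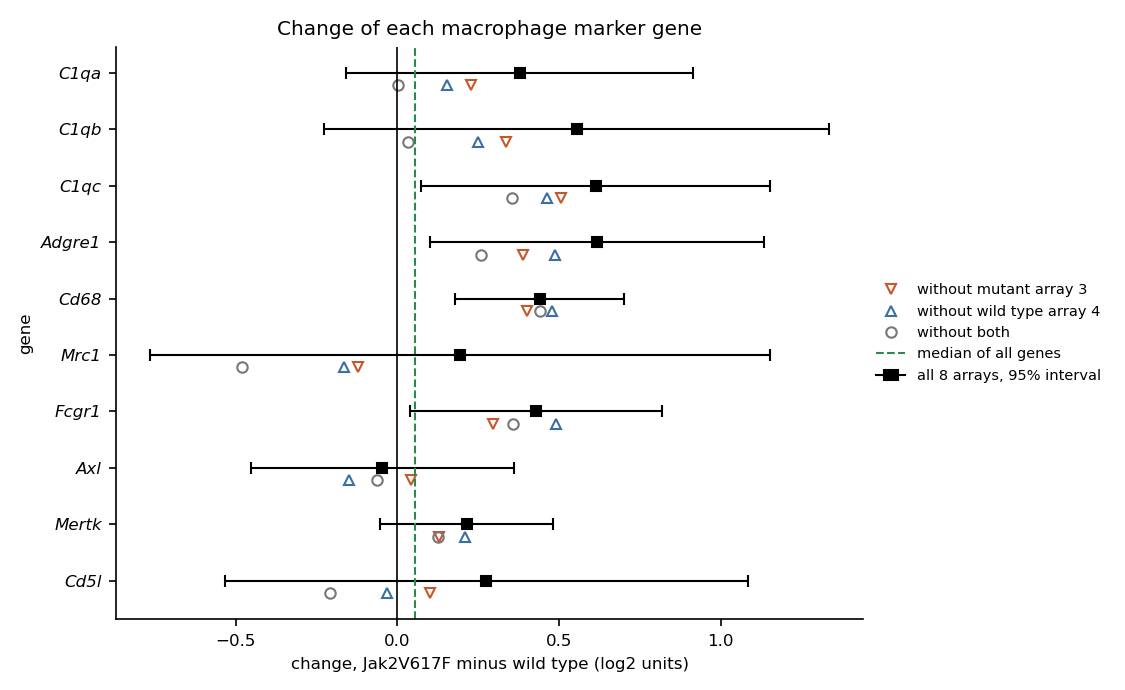
Change in log2 units (x axis) of each macrophage gene (y axis), mutant minus wild type, with its 95% interval over all 8 arrays (squares) and its value without mutant array 3, without wild type array 4 or without both (open symbols). Cd68 stayed at 0.40 to 0.48 in these settings while C1qa, C1qb, Mrc1 and Cd5l came to 0.032 or less without both; Mertk was at the level of absent transcript.

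The deviations of the arrays from the mean of their own genotype show which genes shared a pattern. In wild type array 4 the deviation was -0.67 for C1qa, -0.91 for C1qb, -1.08 for Mrc1 and -0.92 for Cd5l, but 0.12 for Cd68 and 0.19 for Fcgr1. In mutant array 3 it was 0.65 for C1qb, 0.69 for Adgre1 and 0.95 for Mrc1, but -0.26 for Axl. Averaged over the 10 genes it was -0.44 in wild type array 4 and 0.41 in mutant array 3, and between -0.22 and 0.21 in the other 6 arrays. The array medians over all probe sets do not share this order, with 7.12 in wild type array 4 and 7.06 in mutant array 3.

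**Figure D3:**
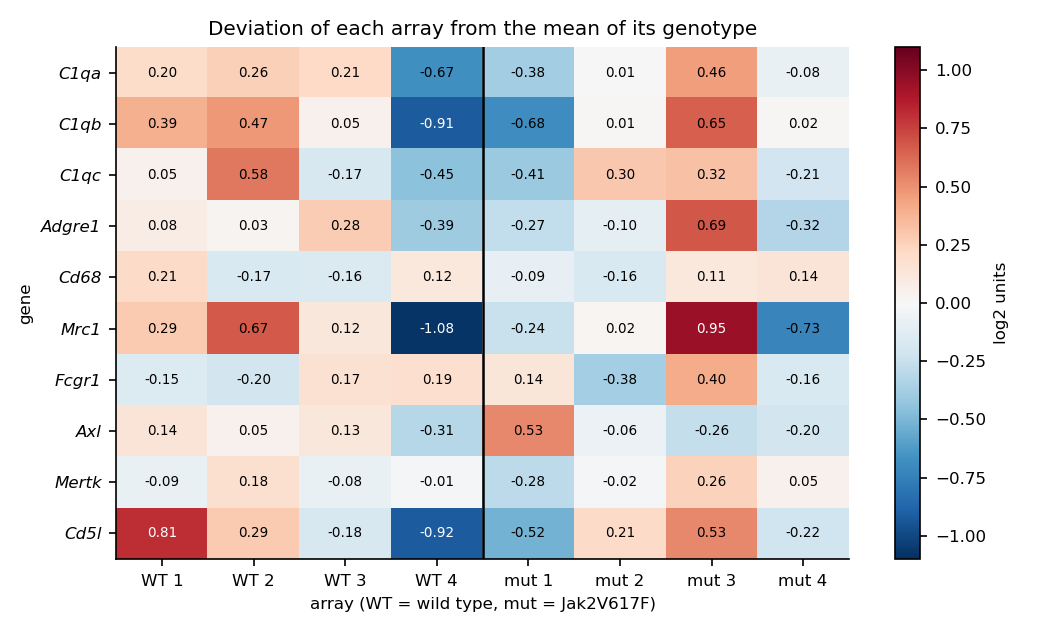
Deviation of each array (x axis) from the mean of its genotype, in log2 units (colour and printed value), for the 10 macrophage genes (y axis). Wild type array 4 is low and mutant array 3 high for the C1q chains, Adgre1, Mrc1 and Cd5l, and Cd68 stays within 0.21 of its genotype mean in every array.

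Among 18183 other genes, the 5 whose centred profile over the 8 arrays lay nearest to the mean profile of the 9 macrophage genes above the absent level were Dapk2, Gata1, Myh10, Ccl6 and Slc6a3. Their root mean square differences from it were 0.088, 0.089, 0.098, 0.10 and 0.13 log2 units, while those of the 9 genes themselves lay between 0.11 for C1qa and 0.43 for Axl. The 5 were picked by this distance from 18183 genes, so their nearness follows from that choice. Slc6a3 had a wild type mean of 5.38, near the level of absent transcript. Gata1, the erythroid and megakaryocyte transcription factor, stood at 10.42 in wild type and 10.92 in mutant arrays (limma adjusted p = 0.271). Ccl6, a chemokine of myeloid cells, stood at 10.52 and 10.89.

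Further macrophage genes were read from lists arranged by role. Of their members 0 passed the adjusted threshold in limma, beside 0.165% of all genes. An unadjusted p under 0.05, which 17.2% of all genes had, was reached by 3 of 7 antibody receptor genes, 5 of 12 iron recycling genes, 6 of 19 dead cell uptake genes, 3 of 15 complement genes, 6 of 28 remaining macrophage genes, 3 of 14 transcription factors and 5 of 6 class II genes. The lists share 8 genes, each counted in both of its lists: Cd163 is among the iron recycling and the remaining macrophage genes, Spic among the iron recycling genes and transcription factors, Epor and Klf1 among the iron recycling genes and erythroid markers, Csf1r, Cd14 and Lyz2 among the remaining macrophage genes and monocyte markers, and Itgax among the complement genes and dendritic cell markers. The receptors and adaptors for antibody beyond Fcgr1 had 6 of 7 genes above 0 and a median of 0.28. Fcgr4 read 6.25 to 6.45 in wild type and 6.86, 7.51, 8.72 and 7.49 in mutant arrays, without overlap (1.32 ± 0.32, SE; limma adjusted p = 0.132). Fcgrt, the receptor that recycles immunoglobulin G (0.53), and the inhibitory receptor gene Fcgr2b (0.61) did not overlap either, and Tyrobp, an adaptor of myeloid receptors, differed by 0.28. Without mutant array 3 the list had 4 of 7 above 0 and a median of 0.19. The wild type values of Fcgr4 lay among the levels that Xist read in male arrays (5.54 to 6.54).

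The list of iron recycling and erythroblastic island genes had 11 of 12 above 0 and a median of 0.38, which was 0.19 without wild type array 4 and mutant array 3. Cd163, the scavenger receptor for haemoglobin, had the smallest p of any gene in the lists. It read 8.69, 8.81, 8.94 and 9.09 in wild type and 9.32, 9.56, 9.67 and 9.58 in mutant arrays, a change of 0.65 ± 0.11 (SE) without overlap (limma adjusted p = 0.0652). The iron exporter gene Slc40a1 differed by 0.74 and Slc11a1, a metal transporter of phagosomes, by 0.73. Epor, the erythropoietin receptor of erythroid cells, was another of the 5 with an unadjusted p under 0.05, at 0.55. Siglec1, the sialic acid receptor of island macrophages, differed by 0.22, from 6.10 to 6.32. The wild type means of Siglec1 and Slc11a1 (5.91) lay among the levels that Xist read in male arrays.

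Partners in dead cell uptake had 12 of 19 genes above 0 and a median of 0.062, close to that of all genes. The ligand Gas6 went from 9.31 ± 0.36 to 8.80 ± 0.36 (SD, n = 4 each), a change of -0.51 (limma adjusted p = 0.275), while Pros1 differed by 0.15 and Tyro3, the third receptor of this family, by 0.23. Cd36 (0.48), Stab2 (0.31) and Lrp1 (0.56), receptors that engage dead cells or lipoproteins, lay higher. The wild type mean of Cd36 (5.19) was below the level of absent transcript. That of Stab2 (6.39) lay among the levels that Xist read in male arrays. Other complement genes had 10 of 15 above 0 and a median of 0.088. The receptor gene C5ar1 was at 0.73, Cfb at 0.40, Cd55 at 0.42 and the integrin gene Itgb2 at 0.29. C1ra, the protease partner of C1q, was at 0.0097. The wild type mean of Cfb (5.95) also lay among the Xist levels of male arrays.

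The remaining list of macrophage genes had 16 of 28 above 0 and a median of 0.041, with Aif1 at 0.87, Ms4a7 at 0.91 and Trem2 at 0.35, none of them overlapping between genotypes. The other 12 lay below 0, with the lipopolysaccharide receptor gene Cd14 at -0.99 (limma adjusted p = 0.273), Adgre4 at -0.30 and Lgmn at -0.25. Vsig4 (4.30 and 4.27), a marker of tissue macrophages, was below the level of absent transcript in both genotypes. Ms4a7 (5.51) and Trem2 (6.09) had wild type means below 6.54, the highest Xist reading in male arrays. Macrophage transcription factors had 12 of 14 above 0 and a median of 0.14, with Spi1 at 0.24, Cebpb at 0.46, Pparg at 0.34 and Id3 at 0.27. The 2 below 0 were Maf at -0.22 and Cebpa at -0.26. The wild type mean of Pparg (6.32) lay among the levels that Xist read in male arrays. The class II genes, which the 10 leave out, had 5 of 6 above 0 and a median of 0.78, with Cd74 at 1.18, H2-Aa at 0.96, Ciita at 0.60 and H2-Ab1 at 0.50. Without wild type array 4 and mutant array 3 the class II median was 0.85, where that of the 10 macrophage genes was 0.079. Those arrays were picked as extremes of the 10 macrophage genes and not of the class II genes. The contrast therefore follows at least in part from that choice, and whether the lists differ in this was not tested.

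**Figure D4:**
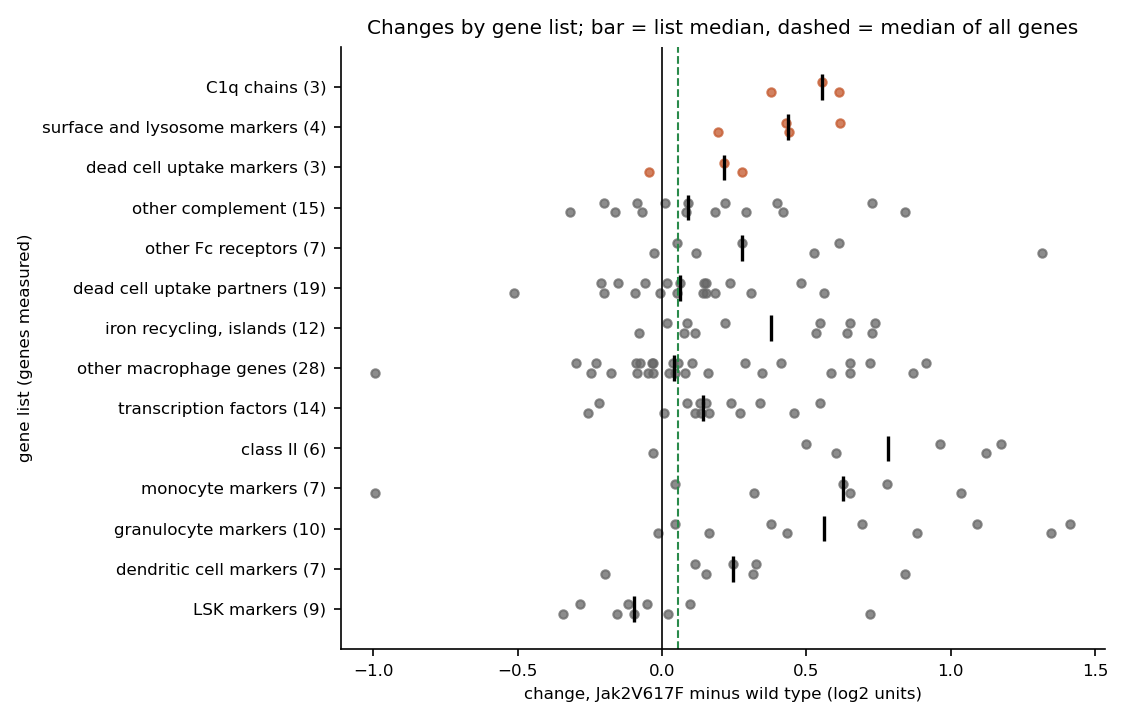
Change in log2 units (x axis) of each gene (points) in 14 lists (y axis, number of genes measured), with the list median (bars) and the median of all genes, 0.054 (dashed line). The medians of the 3 groups of macrophage markers (orange) are 0.55, 0.43 and 0.21 (the last is the difference of Mertk), and those of the other lists (grey) run from -0.098 for LSK markers to 0.78 for class II genes.

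Several lists of markers of other cells also had medians above that of all genes (0.054), while B cell and LSK markers had medians below 0. The part of these cells in the results was not tested. Monocyte markers had 6 of 7 above 0 and a median of 0.63, and their mean level ran from 10.23 in wild type array 4 to 10.80 in wild type and from 10.36 to 11.31, in mutant array 3, in mutant arrays. Csf1r, the receptor that defines the monocyte and macrophage lineage, had means of 11.57 ± 0.68 in wild type and 12.22 ± 0.49 in mutant arrays (SD over 4 mice), with a limma adjusted p of 0.356, Ms4a6c differed by 1.04 and Cd14 by -0.99. Without wild type array 4 and mutant array 3 the monocyte median was 0.18. Granulocyte markers had 9 of 10 above 0, with a median of 0.56 and 0.77 without both arrays. Their levels were 11.56 to 12.33 in wild type and 12.15 to 12.96 in mutant arrays. Ltf differed most of the 10, by 1.41, and Elane (-0.013), Mpo (0.045) and Prtn3 (0.16) least.

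Erythroid markers had 8 of 8 above 0 (median 0.59, levels 8.24 to 8.89 and 9.15 to 9.86), megakaryocyte markers 7 of 7 (median 0.39, levels 9.07 to 9.62 and 9.23 to 9.95) and mast cell and basophil markers 6 of 6 (median 0.32, levels 7.504 to 8.49 and 8.12 to 8.61). Dendritic cell markers had 6 of 7 above 0 (median 0.25, levels 6.95 to 7.62 and 7.24 to 7.998), with Zbtb46 at 0.12. T and NK cell markers had 5 of 7 above 0 (median 0.19, levels 7.40 to 7.57 and 7.41 to 7.75), and B cell markers 3 of 6 (median -0.0068, levels 7.25 to 7.47 and 7.30 to 7.49). Endothelial and stromal markers had 5 of 8 above 0 (median 0.20, levels 6.74 to 6.89 and 6.73 to 6.99), with Cdh5 below the level of absent transcript (4.77 and 5.04). LSK markers had 3 of 9 above 0 and a median of -0.098, with levels of 12.19 to 12.37 and 12.12 to 12.42. Arrays of the genotypes did not overlap for 2 of the 9, beside 10.1% of all genes. These were Mecom (-0.34) and Cd34 (-0.12), both lower in mutant arrays. Hoxa9 differed by -0.28 and Slamf1 by 0.72. In these marker lists 0 members passed the adjusted threshold in limma, beside 0.165% of all genes. An unadjusted p under 0.05, which 17.2% of all genes had, was reached by 1 of 6 B cell markers, the smallest share. The largest share was 5 of 8 erythroid markers.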

How the data were processed

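Total RNA of LSK cells was amplified with the NuGEN Ovation system and hybridised to Affymetrix mouse expression arrays, 1 per mouse, per the labels' protocols. The deposited values are log2 intensities, which per the submitters' processing notes the authors made with RMA (affy, R 2.11.0). RMA equalises the distribution of the arrays, so a shift of most genes would not be seen. Their range showed the log2 scale. The genome build, scan dates and chip definition are not given in the sources used here.

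Of 45101 probe sets, 64 controls were left out, 34945 had 1 gene symbol in the platform annotation, 932 had several and 9160 were not named here. Limma 3.58.1 (lmFit and eBayes, R 4.3.3) compared 4 mutant with 4 wild type arrays over 18193 genes without covariates, two-sided, with Benjamini-Hochberg adjustment and a threshold of 0.05. P-values measure the spread between these mice. Scripts were tested on simulated data. Named genes were the 10 markers, up to 4 genes per list with the smallest p above the absent level (5.37), the 5 nearest profiles, and defining markers of cell types. Further genes (Pros1, C1ra, Vsig4, Epor, Adgre4, Lgmn and Zbtb46 among them) were named after their values were seen, for their role or direction. The 10 genes and all lists were chosen with earlier results of these data known. Of 199 listed genes, 182 were matched to a singly named probe set. Replicate numbers were not used as pairs in the main fit, and the labels do not say whether they pair the arrays. Alternatives were another centring, filter, choice of probe sets, prior, array weights, sex, the replicate number and each array left out. Male arrays alone and leaving out wild type array 4 and mutant array 3 together were added after seeing the data.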

Additional observations from a re-analysis of the deposited data

Results flagged for a closer look

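C1qa in wild type array 4, at 5.74, stood apart from the other wild type arrays, the nearest of which read 6.61. The gap was 0.935 of the range of the 4 arrays, above Dixon's 95% critical value for 4 samples. Of 20 sets of 4 arrays checked (10 genes in 2 genotypes) this was the 1 past the limit, and chance gives about 5%.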

How the results depend on the processing

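In all alternatives 0 of the 10 macrophage genes passed the adjusted threshold in limma, and the lowest adjusted p was 0.112. The direction of a gene turned in 9 cases, which were Axl without wild type array 1 (0.00083), mutant array 3 (0.042) or mutant array 4 (0.021) and in male arrays alone (0.14), Mrc1 without wild type array 4 (-0.17), mutant array 3 (-0.12) or both (-0.48), and Cd5l without wild type array 4 (-0.031) or both arrays (-0.21). With each array left out Axl ran from -0.22 to 0.042, Mrc1 from -0.17 to 0.44 and Cd5l from -0.031 to 0.55. The median change of the 10 genes was 0.23 to 0.48 with each array left out and 0.079 without both arrays. It was 0.49 with sex as a covariate and 0.435 in male arrays alone. Genes whose arrays did not overlap were 2 to 5 of 10 with each array left out (12% to 16.7% of all genes, and 14.8% without mutant array 1, where 5 of 10 did not), 3 in male arrays alone (38.6% of all genes), 3 with probe sets averaged (10.4%), and 1 with dim genes left out (4 genes remained; 10.5%) or without _s_at, _x_at and _a_at probe sets (9 remained; 10% of all genes). Over all genes the 30 calls became 110 on all probe sets, 75 under a trended robust prior, 60 with sex in the fit, 49 for means of probe sets, 47 after centring on array medians and 13 to 40 with each array left out (13 without wild type array 2, 16 without 3, 19 without mutant array 1, 16 without 2, 14 without 4). With the replicate number as a block they became 8 (4 higher, 4 lower), and 0 macrophage genes were called. Deviations of same-numbered arrays correlated at -0.023, -0.22, -0.056 and 0.10, and for 1 of 4 wild type arrays the own number was the best. No pairing by number was seen in this, but 4 arrays a genotype cannot exclude one. The causes were not tested. Signal near background limits Mertk, Adgre1, Cd5l, C1qa, C1qc and Fcgr1, and C1qb in its dimmest probe set. It also limits Cd36, Stab2, Tyro3, Cfb, Fcgr4, Slc11a1, Siglec1, Ms4a7, Trem2, Pparg, Adgre4, Dapk2 and Slc6a3. The wild type means of these further genes were below 6.54, the highest Xist reading in male arrays.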
